A study of Hypsibius exemplaris with 24 samples.

Results

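The 100 transcripts with the highest mean level in unexposed *Hypsibius exemplaris*, a freshwater tardigrade, were followed through the day after exposure to bleomycin. They were taken by their mean TPM (the length-corrected share of a library, scaled to the same fixed total in each) over the 3 control libraries, and are 100 of the 20853 transcripts listed, 0.480% of them. Whole animals were sequenced in 8 groups of 3 biological replicates, each a pool of 50 animals. The control pools spent 24 h in mineral water, and the bleomycin pools spent 24 h in 100 µM bleomycin. The controls and the 0 h pools were frozen at the end of those 24 h. The pools of 1, 3, 6, 9, 12 and 24 h were then rinsed, put on agar with *Chlorella* at 18 °C and frozen at the stated time. Unexposed animals were taken once, so any difference from control after 0 h also holds the washing, the plate, the food and the elapsed time. The labels give no strain, genotype or age.

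Bleomycin is a drug that cuts DNA strands, and tardigrades are known for withstanding DNA damage. In animals the most abundant messenger RNAs usually serve every cell, as those of ribosomal proteins, translation factors, the cytoskeleton and energy metabolism do, or are made in bulk by one tissue, such as gut, muscle or ovary. TPM is a proportion, so a transcript can lose TPM because others gained. In RNA from whole animals, fewer cells of a type and less RNA per cell cannot be told apart. The deposited table does not pair its identifiers with gene names. The transcripts are therefore given by identifier, and no tissue or food markers were used here. All identifiers below end in t01.

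Sequencing depth is unknown, and between 14984 and 17173 transcripts were listed above 0. Within a group, Pearson correlations between libraries over all transcripts tested lay between 0.898, for a pair of controls, and 0.968, for a pair of 24 h libraries. The scale factors that bring the libraries to a common median ran from 0.664 in 12 h replicate 3 to 1.18 in control replicate 3. Scaled TPM is TPM divided by that factor.

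The members were all detected everywhere. All 100 were above 0 in all 24 libraries, and the lowest value of any was 32.95 TPM, in 24 h replicate 1. All 100 passed the filter on low values, and would have passed it in the bleomycin libraries alone. They came from 100 loci, none of which has a second isoform in the table, where 821 of 19939 loci have several. Their control means ran from 14829 TPM down to 1046 TPM. At the lower edge, rank 99 (BV898_06563) was at 1055 and rank 100 (BV898_13613) at 1046, while the 2 transcripts just outside, BV898_11902 and BV898_04922, were both at 1042.

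Those 100 transcripts held between 22.2% and 23.2% of an unexposed library as TPM counts it. Their share was 22.4%, 23.2% and 22.2% in control replicates 1 to 3. At 0 h it was 23.4%, 21.9% and 22.5%, overlapping the controls. It was higher than in any control in all libraries of 1 h (24.2%, 24.6% and 24.3%), 6 h (24.3%, 23.7% and 25.1%), 9 h (26.9%, 23.3% and 25.1%) and 12 h (24.4%, 24.8% and 24.4%). The 3 h libraries, at 24.1%, 23.7% and 22.5%, overlapped the controls. At 24 h the share was 21.6%, 19.9% and 19.9%, below every library of every other group. The control mean was 22.6% ± 0.522 (SD, n = 3). The highest mean was that of 9 h, 25.1% ± 1.79, and the lowest that of 24 h, 20.5% ± 0.943.

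The choice of the members favours the control libraries, so a difference of their share from the control is given without a test. To see how large that favour is, the 100 highest transcripts were also taken from only 2 controls and read in the control left out. The share in that control was 22.3%, 23.1% and 21.8% when replicates 1, 2 and 3 were left out, against 22.3% to 23.4% in the controls that chose. These sets shared 97, 98 and 93 transcripts with the 100. Of the 21 bleomycin libraries, 17, 15 and 17 had a higher share than the left-out control, and 4, 6 and 4 a lower one.

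**Figure D1:**
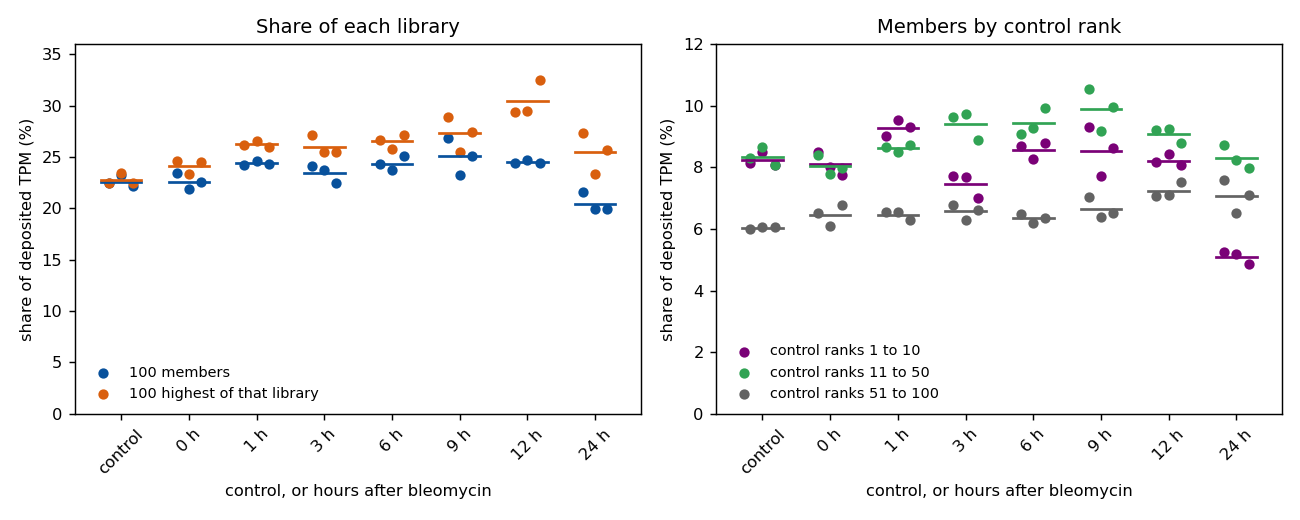
Left, the share of deposited TPM (%) held in each library by the 100 members and by the 100 highest transcripts of that library itself; right, the members split by control rank. Points are libraries (replicates 1 to 3 from left to right) and lines are group means. The share of the 100 members was lowest at 24 h (19.9% to 21.6%), where ranks 1 to 10 held 4.86% to 5.26%.

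Most of the low share of 24 h lay in the 10 highest members. Ranks 1 to 10 held 8.23% ± 0.215 in the control (SD, n = 3). They held 9.29% ± 0.255 at 1 h and still 8.22% ± 0.185 at 12 h, and 5.10% ± 0.212 at 24 h. Ranks 11 to 50 went from 8.35% ± 0.292 in the control up to 9.89% ± 0.680 at 9 h and back to 8.31% ± 0.387 by 24 h. Ranks 51 to 100 held 6.03% ± 0.0448 in the control, 7.23% ± 0.245 at 12 h and, by the end, 7.06% ± 0.529. The control values set these ranks, so the ranks were also set on only 2 controls and read in the control left out, a reading added after seeing the data. The shares of ranks 1 to 10 came out the same, with 8.09% to 8.48% in the control left out and 4.86% to 5.26% in the 24 h libraries. For ranks 51 to 100 the 24 h libraries lay above the control left out when that was replicate 1 (6.69% to 7.96% against 5.93%). They overlapped it when it was replicate 2 (6.18% to 7.11% against 6.25%) or replicate 3 (5.03% to 5.74% against 5.72%). Between 12 and 24 h the mean share fell by 4.05 points of the library, the balance of -6.66 points over 52 members and 2.61 points over 48. BV898_16263 accounted for -1.09 points and BV898_16259 for -0.819 points.

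Of the 100 highest group means, members made up 78 when the exposure ended, 71 to 74 from 1 to 9 h, and 55 in both of the last groups. In single control libraries, 95, 89 and 87 of the 100 highest transcripts were members. The number was 56, 58 and 49 at 12 h and 51, 65 and 49 at 24 h, but the controls chose the members. With the 100 highest of 2 controls instead, the control left out held 93, 87 and 80 of them among its own 100 highest. The 12 h libraries then held at most 60, 58 and 51 in these readings, and the 24 h libraries at most 66, 66 and 59. In all, 38 members stayed among the 100 highest in every group. The 45 transcripts that entered at 12 h went from 3.26% ± 0.163 of the control libraries to 8.96% ± 1.51 of those at 12 h (SD, n = 3), values fixed in part by how they were found. Of these 45, 39 had been within the first 300 ranks of the control, and 28 were also among the 45 that entered at 24 h. The highest of them, BV898_15239, was chosen after its values were seen. It was at 534, 523 and 652 TPM in the controls, where it ranked 257, and at 6389, 5119 and 7425 TPM at 12 h, where it ranked 8. As newer transcripts entered, the 100 highest of each library itself held 22.8% ± 0.585 in the control (SD, n = 3). That share was 30.5% ± 1.79 at 12 h and 25.5% ± 2.01 at 24 h.

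The 10 highest members did not all move in the same way. BV898_08387, the highest in the control, was at 15019, 14909 and 14559 TPM there and at 16077, 14200 and 13918 at 0 h. It reached 24191, 24800 and 22274 TPM at 1 h and was at 7647, 9682 and 6175 at 24 h. The 1 h libraries were above all controls and the 24 h libraries below them. On the log2 scale of scaled TPM plus 1, used for all tests below, it rose by 0.68 with a standard error of 0.15 between 0 and 1 h (limma, adjusted p = 0.00196). It fell by 1.13 with a standard error of 0.15 between 12 and 24 h (limma, adjusted p = 6.05e-05).

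BV898_16263 went the opposite way at first. It was at 11997, 15100 and 15646 TPM in the controls and at 18908, 22547 and 20920 at 0 h, when it was the highest transcript of all. At 1 h it was at 11594, 12512 and 11474 TPM, at 12 h at 21496, 16468 and 20753, and at 24 h at 10913, 5860 and 9275. Between 0 and 1 h it fell by 0.81 ± 0.27 (log2 change ± SE, as below; limma, adjusted p = 0.034), with no overlap between the groups. Its rise between 9 and 12 h was 1.25 ± 0.27 (limma, adjusted p = 0.00679), again with no overlap between groups.

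BV898_16259 took the first place at 12 and 24 h. It was at 8182, 8617 and 10991 TPM in the controls, at 19616, 19251 and 21366 at 12 h and at 14057, 9240 and 12359 at 24 h. It rose by 0.96 ± 0.25 between 9 and 12 h (limma, adjusted p = 0.0107) and fell by 1.03 ± 0.25 between 12 and 24 h (limma, adjusted p = 0.00667). At 24 h it was still higher than at 0 h, by 0.76 ± 0.25 (limma, adjusted p = 0.0156). Its rise between 9 and 12 h was not called under all 3 scalings compared below.

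BV898_01079 was lowest at the end of the exposure. It was at 6594, 6485 and 7512 TPM in the controls, at 4566, 2677 and 2304 at 0 h and at 11380, 11029 and 11817 at 1 h. The rise between 0 and 1 h was 1.90 ± 0.26 (limma, adjusted p = 2.8e-05). At 12 h, when it was at 4315, 7429 and 4111 TPM, 1 library of the 3 was again within the range of the controls.

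Another 3 of the 10 were low in the last groups. BV898_02344 went from 8692, 8099 and 6532 TPM in the controls to 1614, 3143 and 1765 at 24 h. Against 0 h it fell by 1.41 ± 0.23 (limma, adjusted p = 4.17e-05). BV898_02877 went from 6783, 7552 and 4514 TPM in the controls to 997, 1536 and 914 at 12 h, when it ranked 133, and to 1174, 2715 and 1614 at 24 h. Against 0 h it fell by 1.34 ± 0.30 (limma, adjusted p = 0.00106). BV898_03848 was at 8827, 9274 and 6344 TPM in the controls and at 1758, 2735 and 1659 at 12 h, and between 9 and 12 h it fell by 0.92 ± 0.29 (limma, adjusted p = 0.0247).

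For the remaining 3 of the 10, the 12 h values again stood apart from those of 9 h, in both directions. BV898_01076, at 4977, 4973 and 5067 TPM in the controls, was at 5265, 5652 and 7312 at 12 h and at 2935, 1808 and 3350 at 24 h. BV898_12670 was at 6508, 6640 and 7286 TPM at 12 h and at 4573, 2630 and 3444 at 24 h. BV898_17177 fell between 9 and 12 h by 0.53 ± 0.18 (limma, adjusted p = 0.0399), to 3839, 3594 and 2908 TPM. Between 12 and 24 h, 6 of the 10 highest members were called lower (9.35% of all transcripts tested) and 0 higher (10.6% of all).

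**Figure D2:**
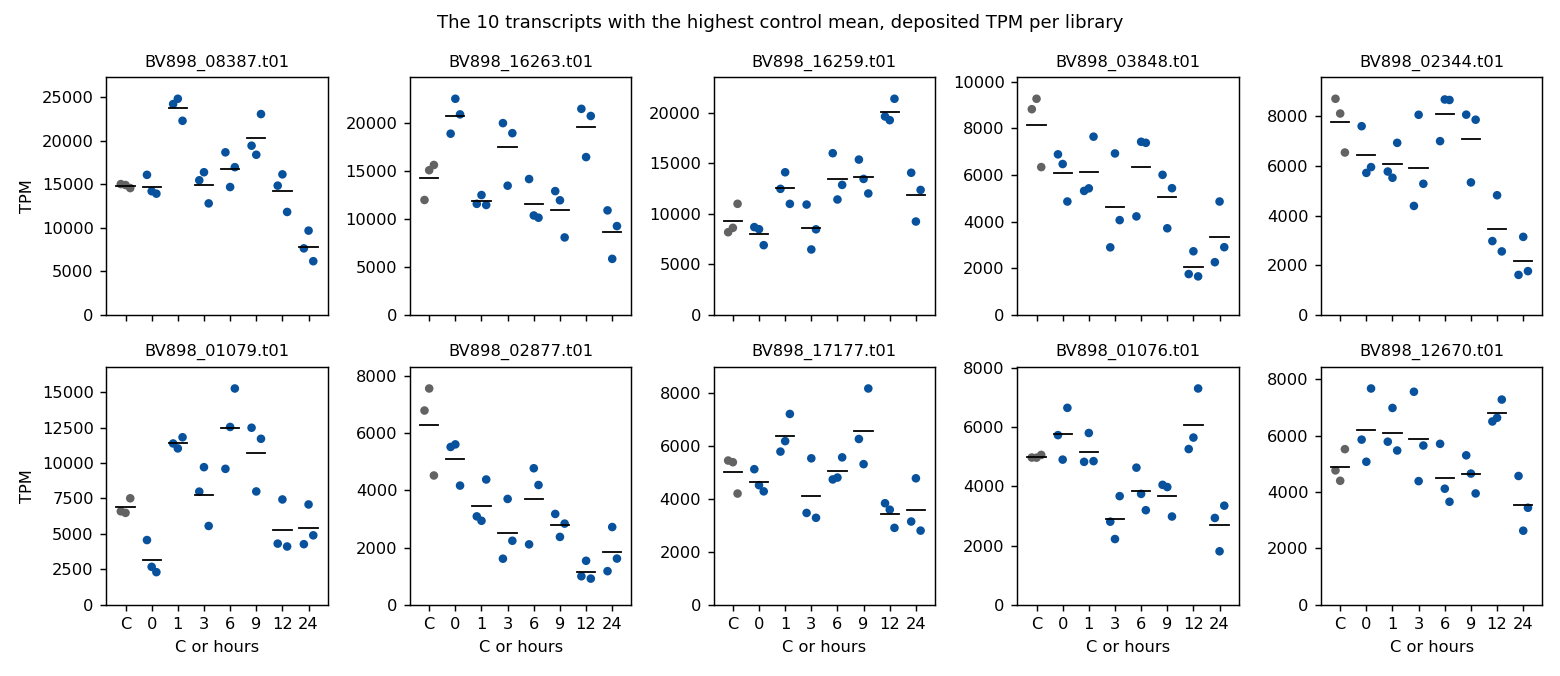
Deposited TPM (linear axes from 0) of the 10 highest members in each library, in the control (C, grey) and by hours after bleomycin (blue), with group means as lines and replicates 1 to 3 from left to right. BV898_16263 was highest at 0 h and 12 h, BV898_08387 at 1 h, and BV898_16259 at 12 h.

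Tests were confined to comparisons between times after bleomycin, because the control levels chose the members. Over the 7 times together, a moderated F test called 94 of the 100 members at an adjusted p under 0.05, where 63.3% of the 16490 transcripts tested were called. The members were also steadier between replicates. Their median standard deviation within groups was 0.288 on the log2 scale, against 0.390 over all transcripts tested, so a difference of a given size is more readily called in them. Their range over the 7 group means had a median of 1.42 on that scale, close to the 1.31 of all transcripts tested.

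The 3 members below moved most over the 7 times. BV898_03573 was at 1510, 328 and 2146 TPM in the controls, the widest spread of any member there, with a ratio of 6.54 between highest and lowest. It was at 132, 45.6 and 68.3 at 0 h, at 3593.5, 3387 and 3385 at 1 h and at 2924, 5335 and 3211 at 24 h. The rise between 0 and 1 h was 5.51 ± 0.49 (limma, adjusted p = 3.49e-07), and at 24 h it stood 5.81 ± 0.49 above 0 h (limma, adjusted p = 4.26e-08).

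BV898_04117 had the same low point. It was at 1712, 2072 and 1180 TPM in the controls, at 302, 225 and 159 at 0 h and at 2116, 2297 and 4050 at 1 h, a rise of 3.60 ± 0.55 (limma, adjusted p = 1.21e-04). At 24 h it was at 916, 1749 and 2344 TPM, 3.01 ± 0.55 above 0 h (limma, adjusted p = 1.79e-04). BV898_05814, whose controls were also uneven at 1075, 626 and 1650 TPM, was at 827, 754 and 784 at 0 h and at 4613, 4928 and 6744 at 24 h. That rise was 2.97 ± 0.30 (limma, adjusted p = 2e-07). The third member with uneven controls was BV898_01950, at 1439, 2268 and 677 TPM there and at 33.0, 89.2 and 79.0 at 24 h.

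At the other end were the 3 members with the smallest range over the 7 group means. They were chosen by that range, so a high p in the F test follows from the choice. BV898_15088 had a range of 0.29 on the log2 scale over the 7 group means (limma F test, adjusted p = 0.523), BV898_15249 one of 0.31 (adjusted p = 0.304) and BV898_10615 one of 0.38 (adjusted p = 0.315). In deposited TPM, BV898_15088 lay between 1412 and 2004 in all 21 bleomycin libraries, and at 1888, 1781 and 1705 in the controls. BV898_15249 lay between 1080 and 1774 TPM and BV898_10615 between 975 and 1942. A p over the threshold does not show that these levels were equal at all times.

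Between 0 and 1 h, when the animals were rinsed and fed, 29 members changed (22.8% of all transcripts tested), 14 of them higher (12.6% of all) and 15 lower (10.2% of all). The count was near the background. BV898_03573 and BV898_04117 rose most. BV898_08168 fell most, from 868, 1206 and 1146 TPM to 277, 160 and 387, a decrease by 2.04 ± 0.27 (limma, adjusted p = 1.55e-05). BV898_14514 fell by 1.71 ± 0.24 (limma, adjusted p = 2.97e-05), from 970, 1287 and 1105 TPM to 328, 288 and 419. Neither overlapped between the groups, which their choice as the largest called falls makes likely. Both were at higher levels in the controls, at 1728 to 1832 and at 1320 to 1587 TPM, but the control levels chose the members.

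Between 1 and 3 h, 12 members changed (7.67% of all), 7 higher (4.54% of all) and 5 lower (3.13% of all). The split was 5 higher and 7 lower both with TPM left unscaled and with quantile normalization, and 4 and 4 members were called in the same direction under all 3 scalings. BV898_08168 rose again, to 666, 1322 and 990 TPM, by 1.97 ± 0.27 (limma, adjusted p = 1.43e-04). BV898_16257 rose from 2549, 2476 and 2468 TPM to 7832, 5304 and 6962, by 1.49 ± 0.25 (limma, adjusted p = 0.00111). BV898_00662 fell by 1.63 ± 0.28 (limma, adjusted p = 0.00115), from 2513, 2490 and 2216 TPM to 746, 1035 and 510. BV898_03571 fell by 0.99 ± 0.23 (limma, adjusted p = 0.0116), with an adjusted p from the same fit of 0.0676 when 1 h replicate 2 was left out and 0.0941 when 3 h replicate 1 was. The count of 12 became 6 (4.88% of all) or 5 (3.54% of all) when replicate 1 or 2 of 1 h was left out. It was 6 (3.04% of all) without 3 h replicate 1, and 20 (10.3% of all) without 24 h replicate 2.

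Few members moved in the middle of the recovery. Between 3 and 6 h, 5 were lower (1.24% of all) and 0 higher (0.473% of all), or 5 in either direction (1.72% of all). At an unadjusted p under 0.05, 24 members passed, as did 15.8% of all. BV898_14514 fell by 1.31 ± 0.24 (limma, adjusted p = 0.00482), from 650, 785 and 754 TPM to 234, 306 and 392. BV898_09026 fell by 1.07 ± 0.23 (limma, adjusted p = 0.0176), but its adjusted p was between 0.0738 and 0.123 without replicate 1 or 3 of 3 h or replicate 2 or 3 of 6 h, and 0.0948 with only the 6 libraries fitted. The count of 5 became 2 without 3 h replicate 1 (0.534% of all) or 6 h replicate 2 (0.553% of all). It was 3 without control replicate 3 (1.92% of all) or 6 h replicate 3 (0.760% of all). Between 6 and 9 h limma called 0 members and 0 transcripts in all. At an unadjusted p under 0.05 there were 10 members and 665 of all transcripts (4.03%). Limma also called 0 members under each of the 3 scalings and with each library left out in turn. No other kind of test was run, which leaves small differences undecided.

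**Figure D3:**
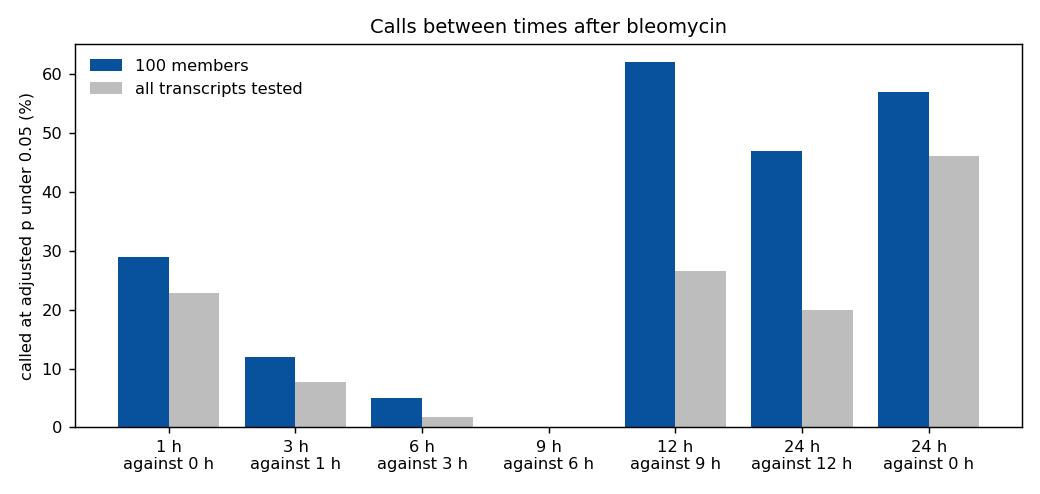
Percentage of the 100 members (blue) and of all 16490 transcripts tested (grey) called at an adjusted p under 0.05 by limma in each comparison between times after bleomycin; bars start at 0. The members reached 62% between 9 and 12 h, against 26.6% of all transcripts.

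Between 9 and 12 h, 62 members changed against 26.6% of all transcripts tested, or 25 against 12.7% where at least a 2-fold change was required. With scaled TPM, 40 were higher (14.4% of all) and 22 lower (12.2% of all). The direction depended on the scaling. With TPM as deposited 23 were higher and 45 lower, and with quantile normalization 12 and 47. Over all transcripts, the median change in TPM as deposited was -0.36 on the log2 scale. The number of members called in the same direction under all 3 scalings was 12 higher and 22 lower, and none was called in opposite directions. Shares of all transcripts called with the other scalings are not given, here or for the other comparisons. These splits therefore describe the members only and are not set against a background. Which members went up relative to which does not depend on a factor per library. The interquartile range of the members' log2 changes in unscaled TPM was 1.49 between 9 and 12 h, against 1.07 over all transcripts, and 0.303 and 0.423 between 6 and 9 h. The count rested on single libraries: it was 17 without 12 h replicate 3 (5.95% of all), the library with the lowest scale factor, and 34 without 9 h replicate 3 (11.7% of all).

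BV898_03694 rose most, from 993, 970 and 646 TPM at 9 h to 1506, 1446 and 2113 at 12 h, by 1.36 ± 0.32 (limma, adjusted p = 0.0082). BV898_09000 rose from 1674, 1823 and 1482 TPM to 3016, 2427 and 3855, by 1.27 ± 0.31 (limma, adjusted p = 0.00923). With 12 h replicate 3 left out, limma gave them an adjusted p of 0.0558 and 0.0602. BV898_03464 fell by 1.65 ± 0.30 (limma, adjusted p = 0.00659), from 1005, 588 and 634 TPM to 166, 286 and 112. BV898_13613 fell by 1.61 ± 0.34 (limma, adjusted p = 0.00672), from 660.3, 373 and 632 TPM to 140.4, 146 and 115. None of these 4 overlapped between the groups, which their choice as the largest called changes makes likely.

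**Figure D4:**
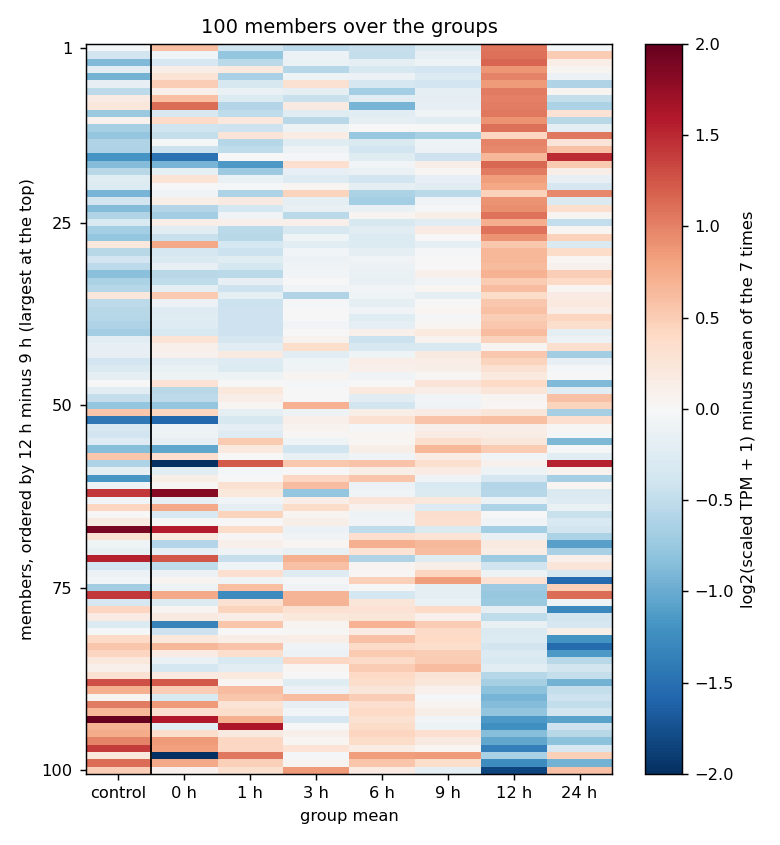
Mean log2(scaled TPM + 1) of each of the 100 members in each group, minus its mean over the 7 bleomycin groups; rows are ordered by the difference between 12 and 9 h, largest at the top, and colour saturates at 2 and -2. The order is chosen on 9 and 12 h, so those columns show the sorting; with this scaling 43 members had their highest of the 7 means at 12 h and 19 their lowest (21.86% and 22.05% of all transcripts tested), but 28 and 32 with TPM unscaled.

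The 12 members called higher and the 22 called lower at 12 h under all 3 scalings were then read in every library as shares of deposited TPM. These sets were chosen on the 9 and 12 h libraries, and their transcripts, as members, on the controls. Only the other bleomycin groups tell something beyond the choice, and the sets themselves were not tested. The 12 higher members include BV898_16263 and BV898_01076, and the 22 lower ones BV898_03848, BV898_02344, BV898_02877 and BV898_17177. The ratio of the first share to the second was 0.535, 0.586 and 0.790 in the controls and 0.875, 1.04 and 1.30 at 0 h, so each 0 h library lay above each control. It was 0.722, 0.813 and 0.562 at 1 h. At 12 h it was 2.72, 2.00 and 3.99.

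In other groups the ratio differed widely between replicates. It was 1.32, 0.558 and 1.23 in the 3 h libraries, 0.988, 0.586 and 0.541 at 6 h, and 1.98, 0.569 and 1.73 at 24 h. The 24 h replicate 2 library was thus within the range of the controls, while the other libraries of 24 h lay above every library of the other groups except those of 12 h. The scale factor was 0.868, 0.855 and 0.664 at 12 h, and 0.883, 1.07 and 0.877 at 24 h, so it was lowest in the library with the highest ratio and, at 24 h, highest in the one with the lowest. At 0, 3 and 6 h too, the highest ratio of the group was in the library with its lowest factor. In the controls and at 9 h it was in the library with the highest factor, and at 1 h in neither. Both shares of a ratio come from one library, so dividing TPM by the factor leaves the ratio unchanged. The relation of the factor to the ratio was not tested. The 22 lower members held 5.24% ± 0.764 of the control libraries (SD, n = 3), which chose them as members, and 4.18% ± 0.517 at 0 h. After the 1.94% ± 0.380 of 12 h that chose them, they were still at 2.38% ± 0.891 at 24 h. Between 0 and 24 h, limma's calls of single members counted 13 of the 22 as lower (21.3% of all) and 2 as higher (24.8% of all). Of the 12, 3 were lower and 1 higher.

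**Figure D5:**
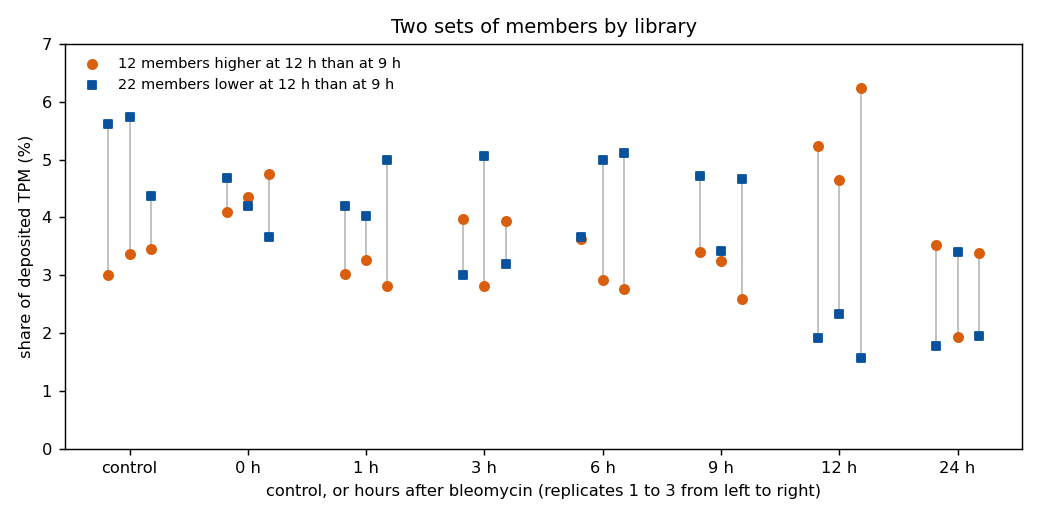
Share of deposited TPM (%) held in each library by the 12 members called higher and the 22 called lower at 12 h than at 9 h under all 3 scalings; a grey line joins the points of one library, with replicates 1 to 3 from left to right. The higher set held more than the lower at 12 h in all 3 libraries, and at 24 h in replicates 1 and 3 but not in replicate 2. It also held more in replicates 2 and 3 of 0 h and in replicates 1 and 3 of 3 h.

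Between 12 and 24 h, 47 members changed (19.9% of all), 11 higher (10.6% of all) and 36 lower (9.35% of all). The split was 17 higher and 27 lower with TPM unscaled and 19 and 20 with quantile normalization, and 11 and 19 members kept one direction under all 3 scalings. BV898_03464 rose back by 2.42 ± 0.30 (limma, adjusted p = 3.78e-05), to 735, 1939.5 and 967 TPM, and BV898_08168 rose by 1.88 ± 0.27 (limma, adjusted p = 1.44e-04), from 305, 244 and 262 TPM to 1043, 1761 and 898. BV898_03808 fell by 1.83 ± 0.19 (limma, adjusted p = 5.28e-06), from 1205, 907 and 773 TPM to 272, 427 and 269.7. BV898_13675 fell by 1.66 ± 0.32 (limma, adjusted p = 0.00154), from 1619, 1712 and 1652 TPM to 722, 365 and 921. The count was 31 without 12 h replicate 3 (9.80% of all), 30 without 24 h replicate 2 (10.3% of all) and 8 with only the 6 libraries of these times fitted (5.78% of all).

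Between 0 and 24 h, 57 members differed (46.1% of all), 24 higher (24.8% of all) and 33 lower (21.3% of all), near the background. The split was 21 and 41 with TPM unscaled and 19 and 44 with quantile normalization, and 19 and 33 kept one direction under all 3. BV898_03573 and BV898_04117 were raised most. BV898_01950 fell by 2.68 ± 0.55 (limma, adjusted p = 4.69e-04), from 674, 478 and 305 TPM to 33.0, 89.2 and 79.0. BV898_17670 fell by 2.21 ± 0.26 (limma, adjusted p = 1.39e-06), from 1318, 1258 and 1113 TPM to 164, 328 and 225. Neither overlapped between the groups, which their choice as the largest called falls makes likely.

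Against the control, members are given as a description only. Members whose 3 libraries all lay above the 3 controls in deposited TPM numbered, in time order, 23 (10.4% of all transcripts tested), 28 (17.3%), 28 (17.7%), 34 (15.7%), 41 (15.9%), 39 (17.4%) and 24 (21.1%). Those entirely below numbered 20 (17.4%), 25 (22.6%), 22 (25.1%), 24 (22.4%), 24 (26.2%), 40 (37.6%) and 40 (30.1%). The rule used the control values, so nothing is read from these counts.

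Some members carry neighbouring identifier numbers. By a gap of at most 10, 22 members fell into 10 runs, of which the run from BV898_16257 to BV898_16264 held 4, with 2.98% of control TPM in sum. The number says nothing certain of position in the genome, for which no annotation was used here. Across the 24 libraries, the 6 Pearson correlations within that run were 0.353 to 0.827. Other runs went from 0.917 for BV898_03693 and BV898_03694 to -0.826 for BV898_00824 and BV898_00825, pairs named after their values were seen. These correlations run over libraries that share groups and scale factors, and similar sequences in a run could share reads.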

How the data were processed

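A single table deposited by the authors holds RSEM's TPM for each transcript in 24 libraries, with one column per library per the file headers and, by the deposited table's own name, no normalization across libraries. The submitters' processing notes name RSEM 1.2.26, Bowtie2 2.2.9, DESeq2 1.22.2 and FastQC 0.11.3, without saying what each did. The genome build is not given in the sources used here. Depth cannot be read from TPM, and counting errors are therefore not stated.

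Shares are sums of deposited TPM. For tests, TPM were divided by a median-ratio factor over the 12190 transcripts above 0 in all 24 libraries. A minimum of 1 TPM in 3 or more libraries left 16490 of 20853 transcripts. Their log2(scaled TPM + 1) was fitted with limma 3.58.1 (R 4.3.3), with a mean per group and eBayes with trend and robust settings. Tests were two-sided, with Benjamini-Hochberg adjustment over all transcripts and a threshold of 0.05. Fold changes on this scale understate those of low transcripts. Errors after ± are SD for levels and shares and SE for log2 changes. The limma fit was also run on simulated data, but without the scaling and the filter, which were therefore not tested. Columns were matched to samples by description, and 0 columns were left unmatched.

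Named transcripts are the 10 highest members, those at the edge of the set, the 2 largest called rises and falls per comparison, the 3 with the largest and smallest range over the 7 times, and the 3 with the most uneven controls. Members, lists and rules were chosen with earlier results of these data known. Lists by gene name could not be used, since the table holds no names. Replicate numbers were not used to pair the libraries. Plots used matplotlib 3.10.9 (Python 3.11.15).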

Additional observations from a re-analysis of the deposited data

How the results depend on the processing

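TPM holds no depth, so what depth limits is unknown. Of the named changes, only the 2 largest called rises and falls per comparison were followed one by one under the alternatives. None of them turned its direction, and 10 of these 770 recalculations missed the threshold. The other named changes, those of the 10 highest members included, entered only the counts of members called and the 3 scalings. Between 9 and 12 h, BV898_16263 and BV898_01076 were called higher under all 3 scalings, but BV898_16259 and BV898_12670 were not. Counts of members called, which equal percentages, moved by over 1.5 times in few cases. With quality weights per library they were 32 between 1 and 3 h (17.1% of all transcripts) and 17 between 3 and 6 h (7.71%). With only the 6 libraries of a comparison they were 7 for 3 against 1 h (7.10%), 2 for 6 against 3 h (0.633%), and 8 for 24 against 12 h (5.78%). With at least a 2-fold change required they were 15 (14.04%), 5 (4.34%), 25 (12.7%), 26 (11.3%) and 33 (32.5%) for 1 against 0 h, 3 against 1 h, 12 against 9 h, 24 against 12 h and 24 against 0 h. Of the 200 highest transcripts, 3% were called between 3 and 6 h. Leaving out 1 library gave ranges of 5 to 20 for 3 against 1 h, 2 to 6 for 6 against 3 h, 17 to 66 for 12 against 9 h, and 30 to 50 for 24 against 12 h; the cause was not tested. The 50 highest transcripts held 16.6%, 16.1%, 17.9%, 16.9%, 18.0%, 18.4%, 17.3% and 13.4% of TPM in the control and at 0 to 24 h, and the 200 highest 31.1%, 31.8%, 33.1%, 32.6%, 33.4%, 34.4%, 34.6% and 29.6%. Summed per locus the share at 12 h was 24.7%. Without 1 library, a control included and the members chosen anew, the share of 1 h ran from 23.8% to 24.5%, that of 3 h from 22.6% to 23.9%, that of 12 h from 23.5% to 24.96%, and that of 24 h from 18.7% to 20.8%. With the replicate number as a block the counts were 33, 14, 5, 0, 64, 52 and 59 in the order of the comparisons, and 94 for the F test. These counts, and the ranges of counts without 1 library, are given without the shares of all transcripts. They show only how far the counts of members moved. Same-numbered libraries of different groups had deviations correlated between -0.303 and 0.409 (15 of 84 over 0.1), and 12 of 24 libraries correlated best with their own number, so the number was not taken as a pairing. The sets called under all 3 scalings and the ranks read in a left-out control were chosen after seeing the data.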
